A study of Mus musculus with 18 samples.

Results

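The genes described here are 37 genes of DNA replication, read in regulatory T cells (TR) of mouse spleen and peripheral lymph node. They were matched by symbol to a list of names, by a rule that uses no measured value, though the list was drawn up with earlier results of these data known. All 37 are among the 14011 genes of the normalized table and the 37991 genes of the count table. The list holds the MCM2-7 helicase, its loading and activating factors, DNA polymerases and primase, the sliding clamp and its loader, single-strand binding proteins, Okazaki fragment joining, deoxynucleotide supply, chromatin copying and uracil repair.

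RNA came from 3 littermate C57BL/6 mice, numbered 84, 86 and 87, whose ages the labels do not give. All of them carried the Foxp3-mRFP and Id3-GFP reporters, so every group shares both reporters and none comes from a mouse without them. Each mouse gave 3 sorted CD4+ populations from each tissue, with 500 cells per library, which makes 6 groups of 3 libraries. Central TR (Id3+ cTR) were sorted as Id3+ CD62L-high CD44-low and effector TR with the reporter (Id3+ eTR) as Id3+ CD62L-low CD44-high, while the label of effector TR without it (Id3- eTR) states no CD62L or CD44 gate.

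TR are CD4 T cells that restrain immune responses, and effector TR are known to divide more than central TR. Before a cell divides, the MCM2-7 ring is loaded on DNA by Cdc6 and Cdt1, is turned on with Cdc45 and the GINS complex, and opens the double helix. Primase and polymerase alpha then start each strand, and polymerases delta and epsilon extend it on the clamp Pcna. Ribonucleotide reductase, thymidylate synthase and thymidine kinase supply the building blocks, and the E2F transcription factors are known activators of many of these genes. Many replication proteins are long-lived and their messenger RNA is found in resting lymphocytes too.

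Library totals ran from 1600782 to 3153325 counts, and the replication genes took 0.186% to 0.289% of them. The splenic Id3+ cTR libraries of mice 84 and 87 had the lowest totals and the fewest genes detected (13826 and 13701), and the splenic Id3+ eTR library of mouse 84 had the highest total and the most genes detected (15045). Calls of replication genes between splenic populations that rest on these 3 libraries are also given without them. Summed levels, non-overlap of groups, other gene lists and marker sums of spleen are given only with them. Foxp3, which defines TR, was read at 237 to 374 CPM, which are counts per 1000000 counts of a library, in every library. The RNA is from bulk sorts, in which fewer cells of a kind and less RNA per cell cannot be told apart.

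Promoters were read to show what the genes share beyond their function. RefSeq windows from 250 bases before to 50 after a start site (GRCm38.p6) matched 31 of the 37 genes, with no window for Mcm4, Gins1, Gins2, Prim2, Pole and Rfc2. Any of the E2F words TTTCCCGC, TTTGGCGC, TTTCGCGC and TTTGCCGC, on either strand and with overlapping matches merged, stood in the windows of 11 of the 31 genes (35.5%). The share was 2.60% over the 27025 genes with a window and 4.90% over the 8841 of them that were tested. CCAAT, on either strand, stood in 18 of the 31 (58.1%), against 41.1% of all genes with a window and 43.2% of those tested. A match is a description of letters and not a measured binding site.

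The 200 bases before the start site are printed for 5 genes that the results turn on, with E2F words in capitals: Mcm6 (chr1:128359706-128359905, minus strand) and Pola1 (chrX:93632156-93632355, minus strand), which differed between populations and hold such words, Mcm5 (chr8:75109309-75109508, plus strand), which holds overlapping words and passed no test, and Rrm2 (chr12:24708054-24708253, plus strand) and Tyms (chr5:30073626-30073825, minus strand), which differed between populations and hold none.
Mcm6: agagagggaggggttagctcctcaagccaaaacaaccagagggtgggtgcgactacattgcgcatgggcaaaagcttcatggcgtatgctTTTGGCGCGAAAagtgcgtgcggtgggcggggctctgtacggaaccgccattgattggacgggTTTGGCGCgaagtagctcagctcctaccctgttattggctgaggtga
Pola1: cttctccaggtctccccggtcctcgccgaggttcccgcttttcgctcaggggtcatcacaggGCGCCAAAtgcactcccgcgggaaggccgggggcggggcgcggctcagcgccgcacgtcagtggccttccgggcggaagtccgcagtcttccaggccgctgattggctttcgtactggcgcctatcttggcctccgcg
Mcm5: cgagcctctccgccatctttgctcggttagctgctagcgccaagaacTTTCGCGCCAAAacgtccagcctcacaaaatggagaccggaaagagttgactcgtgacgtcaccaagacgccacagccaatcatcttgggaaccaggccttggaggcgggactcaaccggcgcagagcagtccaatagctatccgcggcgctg
Rrm2: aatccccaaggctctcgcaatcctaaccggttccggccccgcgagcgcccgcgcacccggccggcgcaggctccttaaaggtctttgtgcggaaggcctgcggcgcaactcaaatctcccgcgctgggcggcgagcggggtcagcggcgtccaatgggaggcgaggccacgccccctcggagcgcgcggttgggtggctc
Tyms: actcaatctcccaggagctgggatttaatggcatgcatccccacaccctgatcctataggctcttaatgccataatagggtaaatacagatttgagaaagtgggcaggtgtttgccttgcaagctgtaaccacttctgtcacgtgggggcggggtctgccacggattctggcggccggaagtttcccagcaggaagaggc
Of the 9 genes that passed the test in some comparison of populations, 3 held an E2F word (Lig1, Mcm6 and Pola1). Of the 22 other genes with a window, 8 did (Cdc6, Cdt1, Mcm3, Mcm5, Mcm7, Pold1, Rfc3 and Uhrf1).

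Reads of nearly all the listed replication genes were found in all 6 populations, central TR included. Between 34 and 37 of the 37 genes had at least 1 count in each library. Over the whole count table, 13701 to 15045 of 37991 genes did. All 37 are also in the smaller normalized table of 14011 genes, so their high share may follow from how they were chosen. Per kilobase of transcript, the highest levels in lymph node Id3+ cTR were those of Rpa2, the middle subunit of the single-strand binding complex, at 68.8 ± 9.81 CPM per kb, Slbp, which binds the stem-loop of histone messenger RNA, at 64.0 ± 8.95, and Pcna at 58.5 ± 8.98 (SD, n = 3). On the same per-kilobase scale the 6 subunits of the MCM ring, which assemble in equal numbers, lay between 22.3 ± 3.40 (Mcm5) and 39.8 ± 7.26 (Mcm6) CPM per kb. Chaf1a, Gins1, Gins2, Cdc6, Pole, Uhrf1, Ung, Tk1 and Fen1 lay under 4 CPM per kb in that group. The length used was that of each gene's longest annotated protein-coding transcript, whichever transcript the cells express, and the order depends on this choice.

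**Figure D1:**
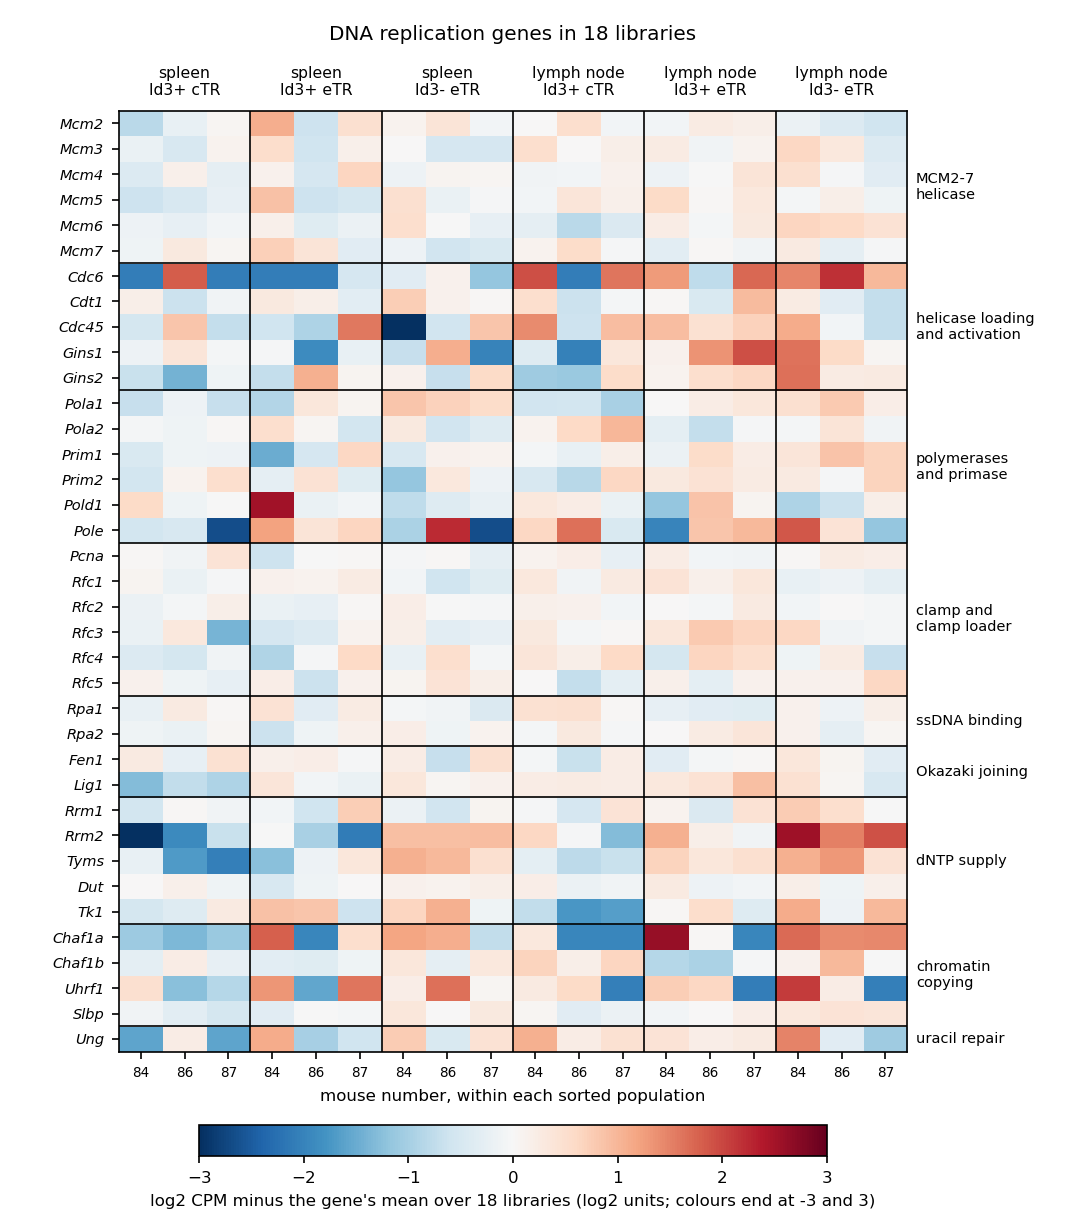
Log2 CPM (prior count 2) of each of the 37 genes in each of the 18 libraries, minus the gene's mean over the libraries, with libraries grouped by population and numbered by mouse and genes grouped by role. The rows of Cdc6, Cdc45, Pole, Chaf1a, Uhrf1 and Ung change from library to library within a group, while Rfc1, Rfc2, Dut and Pcna are close to even, and Rrm2 and Tyms are red across the Id3- eTR columns.

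The genes ranged from steady to erratic ones. The coefficient of variation over the 3 mice of a group, taken as the median over the 6 groups, was 9.30% for Rfc1, the large subunit of the clamp loader, 11.8% for Slbp, 13.1% for Dut, which removes dUTP, and 14.2% for Pcna. It was 88.7% for the chromatin assembly subunit Chaf1a, 85.5% for the uracil glycosylase Ung, 83.3% for the polymerase epsilon subunit Pole and 81.2% for the loading factor Cdc6. Chaf1a, Ung, Pole and Cdc6 were also sparse, with means of 2.03 to 6.66 CPM over the libraries. Not every sparse gene was as erratic: Fen1, at a mean of 2.10 CPM, gave 31.3%. Cdc6 had 0 counts in 5 libraries, Chaf1a in 4, Pole and Ung in 2 each and Cdc45 in 1, so differences in them were hard to detect at this depth. A library could also stand apart: Pold1, the catalytic subunit of polymerase delta, was at 156 CPM in splenic Id3+ eTR of mouse 84 and at 23.2 and 25.3 CPM in the other 2 mice. That library also had the highest summed MCM2-7 level of its group, at 934 CPM against 510 and 718 CPM.

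Summed over the 37 genes, the group means lay between 2043 and 2668 CPM. Abundant genes weigh most in this sum: Mcm6 averaged 252 CPM over the libraries, against 22.5 CPM for Rrm2 and 4.73 CPM for Cdc6. Splenic Id3+ cTR gave 2043 ± 92.2 CPM, splenic Id3+ eTR 2327 ± 321 and splenic Id3- eTR 2346 ± 202, and the same populations of lymph node gave 2339 ± 123, 2474 ± 184 and 2668 ± 252 (SD, n = 3). Libraries of Id3- eTR and Id3+ cTR overlapped in lymph node, where they ran from 2418 to 2921 and from 2240 to 2476 CPM. In spleen they did not overlap, at 2188 to 2574 and 1936 to 2103 CPM. The summed level was also uneven between mice: in lymph node Id3- eTR, mouse 84 had the highest of the 3 values for 21 of the 37 genes.

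The main comparison asked how Id3- eTR differ from Id3+ cTR. A small set of genes was higher in Id3- eTR, led by those of deoxynucleotide synthesis, and no replication gene was called lower with all libraries in the fit. Of the 36 genes with enough counts to test, 5 were higher and 0 lower in spleen, and 6 were higher and 0 lower in lymph node (edgeR's quasi-likelihood test, Benjamini-Hochberg adjusted p under 0.05 over all 12445 genes tested). Of all genes tested in spleen, 7.17% were called higher and 5.09% lower, 12.3% in all, and in lymph node 8.26% and 4.68%, 12.9% in all. The share of replication genes called, all of them higher, was 13.9% in spleen and 16.7% in lymph node, which is near the background of both directions and above that of the higher calls by a few genes. The median log2 difference over the 36 genes was 0.21 in spleen and 0.09 in lymph node, against 0.00 over all genes in both.

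Pola1, Rrm2, Slbp and Tyms were called in both tissues, Lig1 in spleen and Mcm6 and Tk1 in lymph node. The groups did not overlap for 7 genes higher and 2 lower in spleen and for 9 higher and 2 lower in lymph node, where 16.4%, 14.1%, 17.8% and 16.1% of all genes tested did so. Of the 31 genes not called in spleen, 14 had a 95% interval that lay wholly within 2-fold, and so had 13 of 30 in lymph node. The intervals of the other genes not called reached past 2-fold. Without the 3 splenic libraries named above, 1 gene (Tyms) was called in spleen, but that fit holds a single splenic Id3+ cTR library (mouse 86), which is assumed to vary like the other groups. The same holds for every value given below without these 3 libraries. With 1 library left out, 3 of the 5 splenic calls were kept without Id3+ cTR of mouse 84 or of mouse 86. In lymph node 3 of the 6 were kept without the Id3- eTR library of mouse 84, and 2 (Pola1 and Mcm6) without the Id3+ cTR library of mouse 86 or of mouse 87. Rfc1 was called lower without that of mouse 86 (-0.52, edgeR adjusted p = 0.0385).

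**Figure D2:**
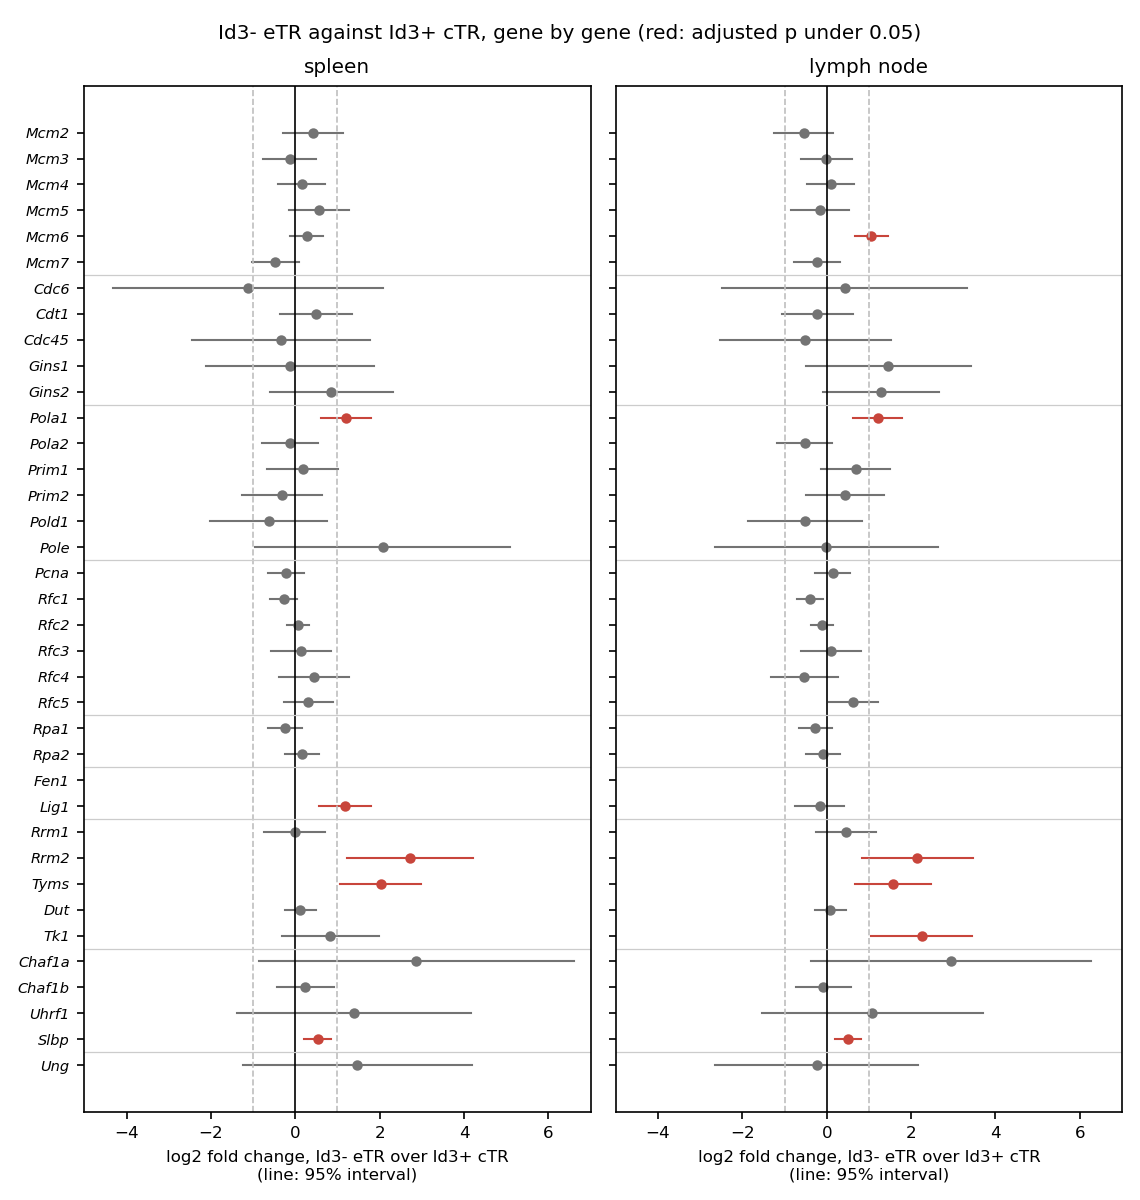
Log2 fold change of Id3- eTR over Id3+ cTR for the 36 genes tested, in spleen (left) and lymph node (right), with 95% intervals as lines, genes called at an adjusted p under 0.05 in red and dashed lines at a 2-fold change. Rrm2, Tyms, Pola1 and Slbp are red in both panels, and the widest intervals belong to Cdc6, Pole, Chaf1a, Uhrf1 and Ung. Fen1 was not tested.

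The largest differences among the genes called were in deoxynucleotide supply. Rrm2, the small subunit of ribonucleotide reductase and the one whose level is known to follow the cell cycle, was at 0.650, 3.20 and 8.63 CPM in splenic Id3+ cTR of mice 84, 86 and 87 and at 27.3, 27.3 and 27.8 CPM in splenic Id3- eTR. In lymph node it was at 22.3, 13.9 and 5.33 CPM in Id3+ cTR and at 86.5, 42.0 and 56.0 CPM in Id3- eTR. Every Id3- eTR library was above every Id3+ cTR library of its tissue, and the Id3- eTR of lymph node were the highest of the 6 groups. The log2 difference was 2.72 ± 0.69 (SE, 6.60-fold, edgeR adjusted p = 0.0140) in spleen and 2.15 ± 0.60 (4.43-fold, edgeR adjusted p = 0.0258) in lymph node, in 3 of 3 mice each. The splenic call was lost without Id3+ cTR of mouse 84 (edgeR adjusted p = 0.0629) or mouse 86 (0.0632), or, at a log2 difference of 3.08 against 1 Id3+ cTR library, without the 3 splenic libraries (0.0670). The lymph node call was lost without the Id3- eTR library of mouse 84 (0.109) and without the Id3+ cTR library of mouse 86 (0.0822) or mouse 87 (0.109).

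Tyms, thymidylate synthase, was at 37.1, 12.8 and 9.87 CPM in splenic Id3+ cTR of mice 84, 86 and 87 and at 91.4, 86.2 and 61.2 CPM in splenic Id3- eTR. In lymph node the values were 35.2, 24.8 and 27.0 CPM in Id3+ cTR and 91.6, 108 and 58.5 CPM in Id3- eTR. The groups did not overlap in either tissue. The log2 difference was 2.02 ± 0.44 (SE, edgeR adjusted p = 0.00506) in spleen, where the call was kept in all 13 alternatives, and 1.57 ± 0.42 (edgeR adjusted p = 0.0189) in lymph node. There it was lost without Id3- eTR of mouse 84 (0.0524) or mouse 86 (0.0690) and without Id3+ cTR of mouse 86 (0.0763) or mouse 87 (0.0683).

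Tk1, the thymidine kinase of dividing cells, was called in lymph node. It was at 6.06, 2.65 and 2.84 CPM in Id3+ cTR and at 24.0, 9.50 and 21.7 CPM in Id3- eTR of lymph node, with no overlap. The log2 difference was 2.25 ± 0.55 (SE, 4.76-fold, edgeR adjusted p = 0.0117), and it was lost without Id3+ cTR of mouse 86 (0.0602) or mouse 87 (0.0584). In spleen the values were 7.15, 7.99 and 12.9 CPM in Id3+ cTR and 17.3, 23.1 and 9.73 CPM in Id3- eTR, which overlapped (log2 difference 0.83, 95% interval -0.32 to 1.98). The remaining genes of the role were not called in either tissue. Rrm1, the large subunit of ribonucleotide reductase, gave log2 differences of -0.02 (95% interval -0.74 to 0.71) in spleen and 0.46 (-0.25 to 1.16) in lymph node, and Dut gave 0.12 (-0.25 to 0.48) and 0.09 (-0.27 to 0.45).

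Summed, Rrm2, Tyms and Tk1 gave 24.0 to 44.9 CPM in the 3 Id3+ cTR libraries of spleen, while Id3+ eTR gave 52.3 to 65.1 CPM and Id3- eTR 98.7 to 137 CPM. In lymph node the ranges were 35.1 to 63.6, 82.4 to 110 and 136 to 202 CPM. The 3 populations of a tissue did not overlap, with Id3+ eTR between the other 2 in both tissues. The genes were summed after their values were seen, so the order is a description.

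**Figure D3:**
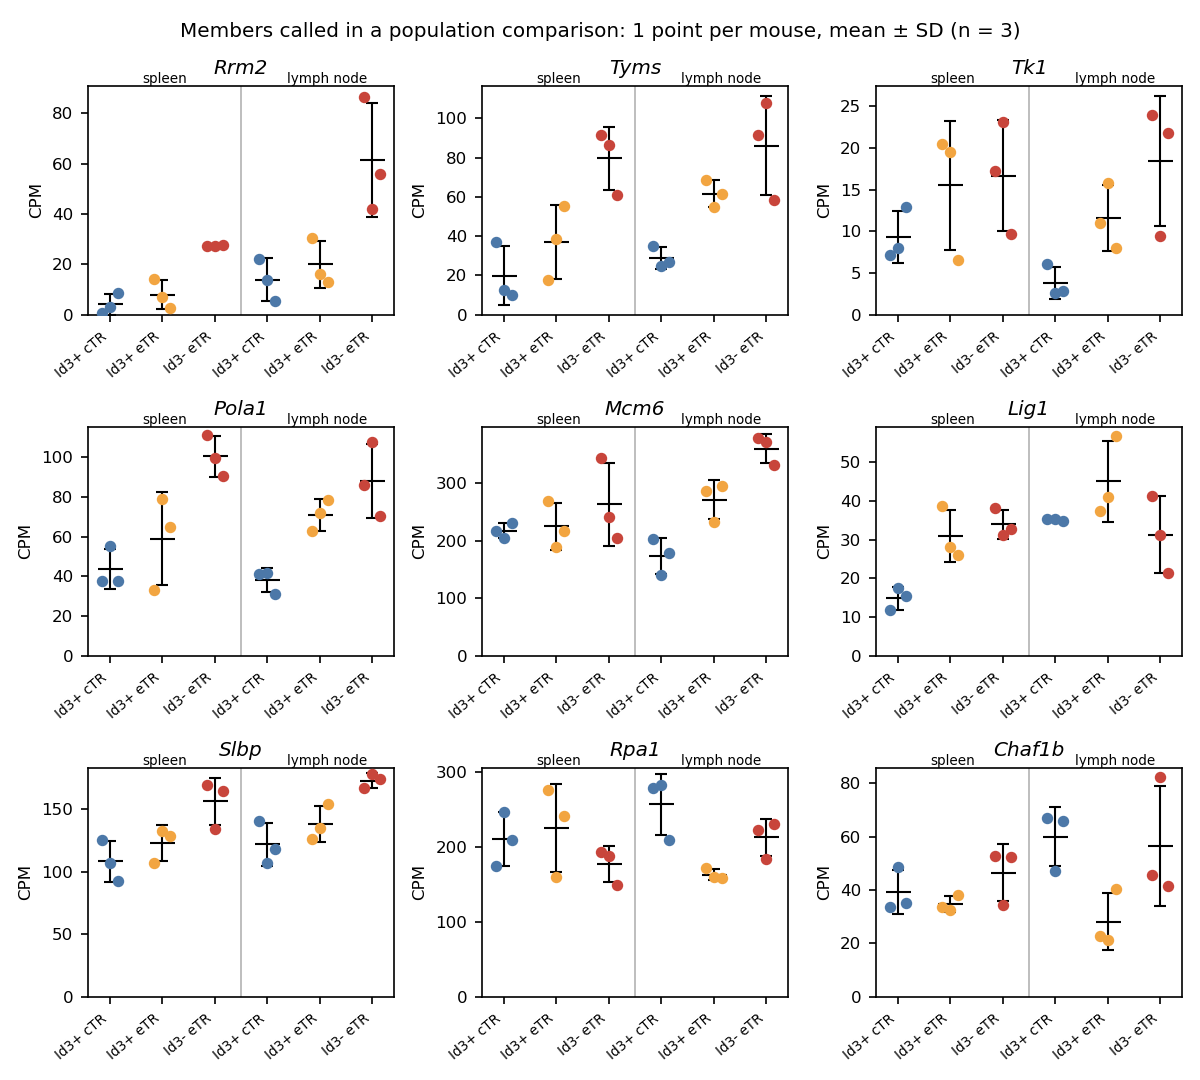
CPM of the 9 genes called in at least 1 comparison of populations, with 1 point per mouse, a wide bar at the mean and whiskers of 1 SD (n = 3), for Id3+ cTR (blue), Id3+ eTR (orange) and Id3- eTR (red) of spleen and lymph node. In Rrm2, Tyms and Pola1 every red point lies above every blue point of its tissue, and in Lig1 the blue points of spleen lie below all other groups' means.

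Among the polymerases, 1 gene of 6 differed. Pola1, the catalytic subunit of polymerase alpha, was at 37.7, 55.1 and 37.6 CPM in splenic Id3+ cTR and at 111, 99.3 and 90.7 CPM in splenic Id3- eTR of mice 84, 86 and 87. In lymph node it was at 41.3, 41.7 and 31.2 CPM in Id3+ cTR and at 86.1, 108 and 70.6 CPM in Id3- eTR. The groups did not overlap in either tissue. The log2 difference was 1.20 ± 0.27 (SE, 2.29-fold, edgeR adjusted p = 0.00677) in spleen and 1.21 ± 0.27 (2.31-fold, edgeR adjusted p = 0.00569) in lymph node. The lymph node call was kept in all 12 alternatives, and the splenic call was lost in 1 of 13, without the 3 splenic libraries, which leaves 1 Id3+ cTR library (log2 difference 0.86, edgeR adjusted p = 0.0993).

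The partners of Pola1 in the same complex did not pass the test. Pola2, its accessory subunit, gave log2 differences of -0.12 (95% interval -0.79 to 0.55) in spleen and -0.52 (-1.17 to 0.13) in lymph node. The primase subunits Prim1 and Prim2 gave 0.17 and -0.31 in spleen, while lymph node values were 0.68 and 0.43, with 95% intervals from -1.26 to 1.51 over the 4 values. For Pold1 and Pole the 95% intervals reached past 2-fold in both tissues, so a difference of that size was not excluded.

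Of the 6 MCM subunits only Mcm6 was called, and only in lymph node. It was at 202, 140 and 179 CPM in Id3+ cTR, at 286, 232 and 296 CPM in Id3+ eTR and at 378, 371 and 331 CPM in Id3- eTR of lymph node, for mice 84, 86 and 87. No 2 of these groups overlapped. Id3- eTR minus Id3+ cTR gave a log2 difference of 1.05 ± 0.18 (SE, 2.07-fold, edgeR adjusted p = 0.000637), the smallest p of any replication gene, and it was kept in all 12 alternatives. In spleen Mcm6 was at 217, 205 and 231 CPM in Id3+ cTR and at 344, 241 and 204 CPM in Id3- eTR, which overlapped (log2 difference 0.28, 95% interval -0.12 to 0.67). The difference between the tissues was itself not called (interaction 0.78 ± 0.25, SE, edgeR adjusted p = 0.571). Mcm2, Mcm3, Mcm4, Mcm5 and Mcm7 gave log2 differences between -0.47 and 0.57 in spleen and between -0.55 and 0.10 in lymph node. The factors that load and switch on the ring, Cdc6, Cdt1, Cdc45, Gins1 and Gins2, were called in neither tissue, and their intervals were wide: for Gins1 in lymph node the 95% interval ran from -0.50 to 3.43.

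No gene of the clamp and its loader was called. Pcna gave log2 differences of -0.21 (95% interval -0.64 to 0.21) in spleen and 0.14 (-0.28 to 0.56) in lymph node, so that a 2-fold change lay outside both intervals. Rfc2 gave 0.06 (-0.20 to 0.33) and -0.12 (-0.38 to 0.15). Rfc1, the large subunit of the loader, lay lower in Id3- eTR of lymph node, at 101, 107 and 97.0 CPM, than in Id3+ cTR, at 149, 110 and 142 CPM, and did not pass the test (log2 difference -0.40 ± 0.15, SE, edgeR adjusted p = 0.0872), but was called without Id3+ cTR of mouse 86 (-0.52, edgeR adjusted p = 0.0385). The single-strand binding subunits Rpa1 and Rpa2 gave values between -0.27 and 0.16 over both tissues, and none was called.

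Lig1, the ligase that seals Okazaki fragments, was called in spleen. It was at 11.7, 17.6 and 15.4 CPM in splenic Id3+ cTR, at 38.5, 28.1 and 26.0 CPM in splenic Id3+ eTR and at 38.1, 31.1 and 32.7 CPM in splenic Id3- eTR, and neither eTR group overlapped Id3+ cTR. In lymph node the 3 Id3+ cTR libraries were at 35.2, 35.4 and 34.8 CPM and Id3- eTR at 41.3, 31.1 and 21.4 CPM. Id3- eTR minus Id3+ cTR gave a log2 difference of 1.18 ± 0.28 (SE, edgeR adjusted p = 0.00985) in spleen and -0.17 ± 0.27 (edgeR adjusted p = 0.776) in lymph node, and the difference between the tissues was not called (interaction -1.35 ± 0.39, edgeR adjusted p = 0.419). The splenic call did not hold when Id3+ cTR of mouse 84 was dropped (0.0548), nor without the 3 splenic libraries (log2 difference 0.95, 0.223), which include 2 of the 3 low values and leave 1 Id3+ cTR library. Fen1, the flap nuclease of the same step, had too few counts to test, at 0.942 to 3.13 CPM. In the GENCODE M21 annotation 78.8% of its exonic bases overlap an antisense gene, the use of strand in counting being not given in the sources used here.

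Of the chromatin genes, Slbp was called in both tissues with the smallest change of any called gene. It was at 125, 107 and 92.5 CPM in splenic Id3+ cTR and 170, 135 and 165 CPM in splenic Id3- eTR, and at 140, 107 and 119 CPM and 167, 178 and 174 CPM in lymph node. The groups did not overlap in either tissue. The log2 difference was 0.53 ± 0.15 (SE, edgeR adjusted p = 0.0231) in spleen and 0.51 ± 0.14 (edgeR adjusted p = 0.0261) in lymph node. The call was lost in 6 of 13 alternatives in spleen and in 5 of 12 in lymph node, with adjusted p up to 0.119 and 0.120. In spleen these were the fit without Id3- eTR of mouse 84 (0.0819) or mouse 87 (0.0743), without Id3+ cTR of mouse 86 (0.0559) or mouse 87 (0.119), without the 3 libraries, against 1 Id3+ cTR library (0.114), or with the groups of the contrast alone (0.0502). In lymph node it was lost without any 1 of the 3 Id3- eTR libraries (0.0521 to 0.0728) and without the Id3+ cTR library of mouse 86 (0.120) or mouse 87 (0.0860). A pseudogene, Gm8396, matches 43.4% of the Slbp transcript at 95.4% identity, so reads could be split between them. Pseudogenes also match Mcm7 (72.7% of the transcript at 97.7% identity), Pcna (51.4% at 99.2%), Uhrf1 (44.3% at 98.3%) and Rfc5 (36.5% at 96.2%). The same limit holds for the levels and differences of these genes.

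Chaf1a and Chaf1b encode the large and middle subunits of chromatin assembly factor 1, and Uhrf1 brings the maintenance methyltransferase to new DNA. None of them was called between Id3- eTR and Id3+ cTR, nor was Ung. Chaf1a had 1 count in each splenic Id3+ cTR library and was at 9.04, 7.31 and 7.49 CPM in lymph node Id3- eTR, against 3.03, 0 and 0 CPM in lymph node Id3+ cTR. Those lymph node groups did not overlap, but its 95% interval ran from -0.37 to 6.28 on the log2 scale. In GENCODE M21, 52.5% of the exonic bases of Chaf1a overlap Ubxn6 on the other strand and 67.3% of those of Gins2 overlap Gse1, so their counts are uncertain.

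A further comparison set the Id3+ eTR against the Id3+ cTR. Few replication genes differed, and in lymph node they moved in both directions. In spleen 1 gene of 36 was higher (Lig1) and 0 lower, where 4.32% of all genes were called, 2.93% higher and 1.39% lower. In lymph node 1 was higher (Mcm6) and 2 were lower (Rpa1 and Chaf1b), where 5.66% of all genes were called, 4.2% higher and 1.46% lower. The median log2 differences were 0.26 in spleen, against 0.05 over all genes, and 0.14 in lymph node, against 0.00. Groups did not overlap for 3 genes higher and 0 lower in spleen and for 6 higher and 3 lower in lymph node, where 10.8%, 9.07%, 13.5% and 11.3% of all genes did so.

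Lig1 gave a log2 difference of 1.04 ± 0.28 (SE, edgeR adjusted p = 0.0458) in spleen, from the values given above. It was lost with the mouse as a block (0.0704) and without any 1 of the Id3+ cTR libraries (mouse 84, 0.179, mouse 86, 0.0508, and mouse 87, 0.132), or without the Id3+ eTR library of mouse 84 (0.168) or mouse 86 (0.0501). Without the 3 splenic libraries, which leaves 1 Id3+ cTR and 2 Id3+ eTR libraries, the log2 difference was 0.62 (edgeR adjusted p = 0.757). Mcm2, another subunit of the helicase ring, was called in its place without Id3+ eTR of mouse 86 (1.13, edgeR adjusted p = 0.0211).

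Mcm6 rose by 0.65 ± 0.18 on the log2 scale (SE, 1.56-fold, edgeR adjusted p = 0.0440) in lymph node Id3+ eTR. Rpa1, the large subunit of the single-strand binding complex, was at 279, 282 and 209 CPM in lymph node Id3+ cTR and at 172, 159 and 158 CPM in lymph node Id3+ eTR, with no overlap (log2 difference -0.66 ± 0.18, SE, edgeR adjusted p = 0.0435). Chaf1b was at 67.0, 47.3 and 66.0 CPM and at 22.9, 21.3 and 40.5 CPM in the same groups, also with no overlap (-1.08 ± 0.31, edgeR adjusted p = 0.0487). In splenic Id3+ eTR, Rpa1 was at 275, 160 and 241 CPM and overlapped Id3+ cTR at 174, 247 and 209 CPM. With the mouse as a block, Rpa1 (0.0571) and Chaf1b (0.0652) were not called, while Pola1 was, at 0.91 (edgeR adjusted p = 0.0476). Chaf1b was called in 2 of 12 alternatives and was also lost with RLE scaling (0.0517), no filter (0.0618), limma-voom (0.0521) and the groups of the contrast alone (0.0873). Leaving out any 1 of the 6 lymph node libraries left 0 or 1 of the 3 calls: 0 without the Id3+ eTR library of mouse 84 or the Id3+ cTR library of mouse 86, and 1 without any of the others.

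Between the effector populations, Id3- eTR against Id3+ eTR, edgeR called 0 of 36 replication genes in either tissue, where 3.28% of all genes were called in spleen (1.53% higher and 1.75% lower) and 2.62% in lymph node (1.45% higher and 1.17% lower). The groups did not overlap for 5 genes higher and 2 lower in each tissue, where 9.79% and 8.76% of all genes did so in spleen and 11.3% and 10.7% in lymph node. At an unadjusted p under 0.05 there were 7 genes in spleen and 5 in lymph node. DESeq2 called 1 gene in each tissue, Rfc1, and limma-voom called 0 in spleen and 1 in lymph node, Rrm2. The smallest adjusted p belonged to Rfc1 in both tissues. It was at 112, 78.2 and 92.8 CPM in splenic Id3- eTR and at 130, 128 and 142 CPM in splenic Id3+ eTR, and at 101, 107 and 97.0 CPM and 158, 133 and 150 CPM in lymph node. Id3- eTR were lower with no overlap in both tissues (log2 difference -0.50 ± 0.15, SE, edgeR adjusted p = 0.0764 in spleen, and -0.53 ± 0.15, edgeR adjusted p = 0.0648 in lymph node). With the mouse as a block Rfc1 was called in both, at -0.51 (edgeR adjusted p = 0.0468) and -0.52 (0.0453), and in spleen it was also called without Id3- eTR of mouse 84 (0.0401). Without splenic Id3+ eTR of mouse 87, Mcm7 was called lower in Id3- eTR of spleen, at -0.96 (edgeR adjusted p = 0.0353). Rrm2 gave 1.78 ± 0.62 (edgeR adjusted p = 0.143) in spleen and 1.63 ± 0.59 (edgeR adjusted p = 0.203) in lymph node, with no overlap in either.

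Between the tissues, edgeR called 0 of 36 genes in each of the 3 populations. Of all genes tested, 0.00804% were called in Id3+ cTR (0.00804% higher in lymph node and 0% lower), while the shares were 0.289% for Id3+ eTR (0.112% and 0.177%) and 0.305% for Id3- eTR (0.145% and 0.161%). Groups did not overlap for 5 genes higher and 2 lower in lymph node for Id3+ cTR, for 2 and 0 in Id3+ eTR and for 5 and 1 in Id3- eTR, with backgrounds of 7.18% and 7.38%, 7.14% and 6.63%, and 7.8% and 7.1%. At an unadjusted p under 0.05 there were 4, 3 and 1 genes. DESeq2 called 1 gene in Id3+ cTR (Lig1, higher in lymph node by 1.22 on the log2 scale, adjusted p = 0.0332) and 0 in the others, and limma-voom called 0 in all 3. The smallest edgeR adjusted p values were 0.266 (Lig1), 0.317 (Rfc3) and 0.478 (Mcm6). The interactions of tissue with population also gave 0 calls of 36 by edgeR, DESeq2 and limma-voom, with 3, 3 and 2 genes at an unadjusted p under 0.05, where 0.0241%, 0% and 0% of all genes were called. The median SE of an interaction was 0.45 to 0.46 on the log2 scale, so that only large differences between the tissues could have been seen.

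Other lists of the cell cycle were read beside these genes in the comparison of Id3- eTR with Id3+ cTR. Further replication factors, which include the origin recognition complex, gave few calls: 3 of 45 tested were higher and 0 lower in spleen (Gmnn, Top2a and Pold3), with a median log2 difference of -0.03, and 3 were higher and 0 lower in lymph node (Asf1b, Gmnn and Top2a), with a median of -0.08. Gmnn encodes geminin, which blocks relicensing of origins, and rose by 0.99 ± 0.30 (SE, edgeR adjusted p = 0.0380) in spleen and 1.13 ± 0.29 (0.0151) in lymph node on the log2 scale. Asf1b, a histone chaperone, rose by 1.15 ± 0.31 in lymph node (edgeR adjusted p = 0.0192).

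The wider nucleotide supply list had medians below 0. Of 28 genes tested, 0 were higher and 2 lower in spleen (Impdh1 and Nme1), and 1 was higher and 5 lower in lymph node (Dck higher, and Impdh1, Shmt1, Mthfd1, Gart and Ctps lower), with medians of -0.28 and -0.32. Impdh1, which makes guanine nucleotides, was at 107, 154 and 147 CPM in lymph node Id3+ cTR and at 68.4, 66.9 and 52.4 CPM in lymph node Id3- eTR. It fell by 1.12 ± 0.23 on the log2 scale (SE, edgeR adjusted p = 0.00310). Gart, an enzyme of purine synthesis, fell by 1.28 ± 0.31 (edgeR adjusted p = 0.0104), and Dck, which salvages deoxynucleosides, rose by 1.30 ± 0.25 (edgeR adjusted p = 0.00201).

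Of 29 tested genes of the E2F, RB and G1/S list, 3 were higher and 2 lower in spleen and 3 higher and 1 lower in lymph node, with medians of 0.21 and 0.12. Those higher in both tissues were Rbl2, a pocket protein of resting cells, and the cell cycle inhibitors Cdkn1a and Cdkn2c. Rbl2 rose by 1.06 ± 0.12 in spleen and 1.36 ± 0.12 (SE, edgeR adjusted p = 9.88e-07) in lymph node on the log2 scale. The cyclins Ccnd2 and Ccnd3 were lower in spleen and Ccnd3 in lymph node.

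Mitosis markers had the highest medians of the 5 lists. Of 22 tested, 4 were higher in spleen (Cdk1, Top2a, Mki67 and Kif23) and 14 in lymph node, and 0 were lower in either. Top2a also stands among the further replication factors above, so these lists overlap. The median log2 difference was 3.41 in spleen and 4.21 in lymph node. With genes that had no count in 1 of the groups set at a bound of 3 counts over that group, it was 1.64 and 4.21. Mki67, the classic marker of cycling cells, was at 0.650, 0 and 0 CPM in splenic Id3+ cTR of mice 84, 86 and 87 and at 129, 54.6 and 86.2 CPM in splenic Id3- eTR. In lymph node it was at 5.68, 7.28 and 2.13 CPM in Id3+ cTR, at 73.1, 22.8 and 30.1 CPM in Id3+ eTR and at 201, 111 and 151 CPM in Id3- eTR. No 2 of the lymph node groups overlapped.

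**Figure D4:**
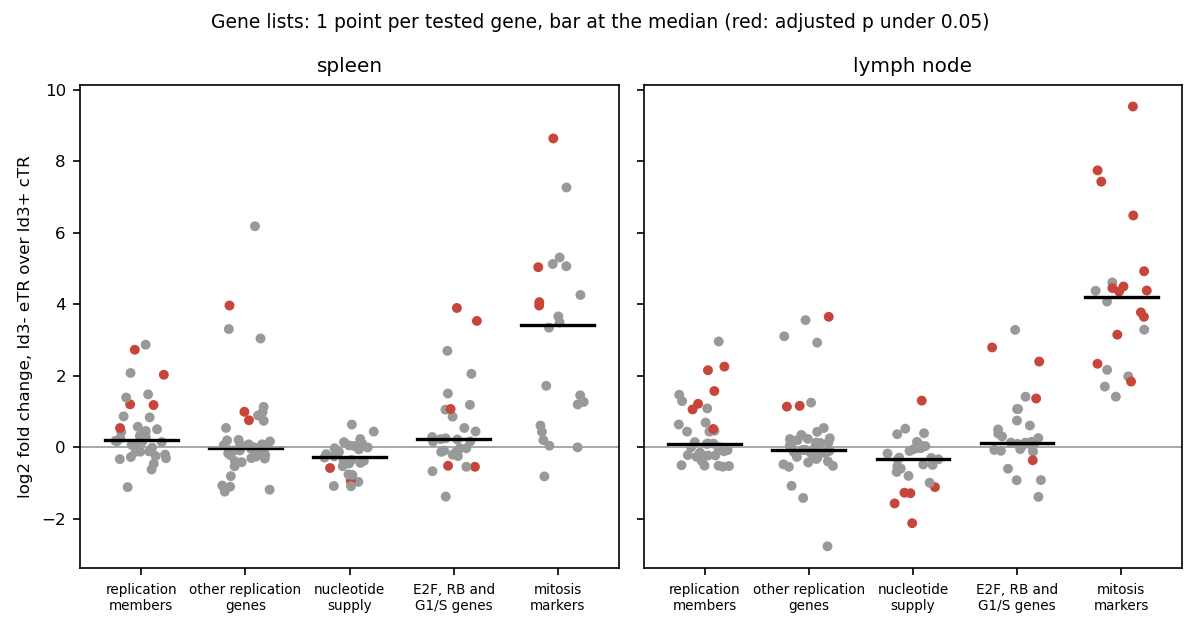
Log2 fold change of Id3- eTR over Id3+ cTR for every tested gene of 5 lists, in spleen (left) and lymph node (right), with 1 point per gene, a bar at the list's median and genes called at an adjusted p under 0.05 in red. The mitosis markers lie highest, with medians of 3.41 and 4.21, the replication genes at 0.21 and 0.09, and the nucleotide supply genes below 0. Values for genes with few or no counts in 1 group depend on the prior count.

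The 5 TR markers (Foxp3, Il2ra, Ikzf2, Ctla4 and Tnfrsf18) summed to 2053 to 2535 CPM in Id3+ cTR and 2579 to 2707 CPM in Id3- eTR of spleen. In lymph node they summed to 2068 to 2165 and 2918 to 3195 CPM. Ctla4, Ikzf2 and Tnfrsf18 were called higher in lymph node Id3- eTR, by 0.96, 0.98 and 0.39 on the log2 scale. Il2ra was called lower in splenic Id3- eTR (-0.85). Markers of other cells moved with the same comparison. The 8 myeloid and dendritic markers summed to 141 to 167 CPM in lymph node Id3+ cTR and 327 to 365 CPM in Id3- eTR, and to 137 to 264 and 234 to 295 CPM in spleen, and 4 of 6 tested were called higher in lymph node and 3 of 6 in spleen. The 6 CD8 T and NK cell markers summed to 59.9 to 104 and 179 to 228 CPM in lymph node and to 71.9 to 167 and 164 to 218 CPM in spleen, with 2 of 5 and 1 of 5 called higher. Within those lists, Ncr1 was at 0 in all 18 libraries, and Csf1r was at 0 in both lymph node groups. The 10 erythroid and platelet markers ran the other way in spleen, at 265 to 400 CPM in Id3+ cTR and 63.3 to 214 CPM in Id3- eTR, with 0 of 9 called higher and 1 lower. In lymph node they were even, at 108 to 120 and 90.8 to 116 CPM.

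The 6 B cell markers summed to 55.9 to 219 CPM in splenic Id3+ cTR and 120 to 150 CPM in splenic Id3- eTR, with 1 of 5 called lower, and to 97.6 to 143 and 119 to 147 CPM in lymph node, with none called. The 5 germinal centre and plasma cell markers summed to 102 to 150 CPM in Id3- eTR and 202 to 248 CPM in Id3+ cTR of spleen, and to 125 to 164 and 189 to 229 CPM in lymph node. Fas was called lower in both tissues, while Mzb1 and Jchain, the other genes tested, had log2 differences above 0 that were not called. Of the 5 stromal and endothelial markers, Cdh5, Col3a1 and Pdpn were at 0 in all libraries, and Pecam1, the 1 gene tested, was lower in Id3- eTR of both tissues, with list sums of 282 to 345 CPM in Id3+ cTR and 75.2 to 111 CPM in Id3- eTR of spleen and of 201 to 292 and 64.9 to 79.4 CPM in lymph node. The part of these markers in the differences of replication genes was not tested.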

How the data were processed

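RNA from 18 libraries of 500 sorted cells, made with SMART-Seq v4 and a modified Nextera XT protocol per the labels' protocols, was read from a table of whole-number counts per gene deposited by the authors, with no normalization. A second deposited table holds normalized signal, in which 99.986% of the values for the 13883 matched genes equal the count times 1 factor per library within 0.1%. It served to check that all genes of the list are measured and as an alternative for their summed level. Bowtie, TopHat, HTSeq, Picard and SAMtools were used per the submitters' processing notes. The genome build and strandedness are not given in the sources used here. Symbols came from GENCODE M21 for 32919 identifiers, and the rest held 0.891% of counts.

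The filterByExpr step (minimum count 10) left 12445 genes. After TMM scaling, edgeR 4.0.16 under R 4.3.3 fitted 6 groups together (robust quasi-likelihood, two-sided, 12 residual degrees of freedom). Calls use a Benjamini-Hochberg adjusted p under 0.05 across the 12445 genes. CPM use TMM-scaled totals, and 95% intervals use the t distribution with the residual degrees of freedom. Alternatives were RLE scaling, no filter, DESeq2 1.42.0, limma-voom (limma 3.58.1), the mouse as a block, the groups of the contrast alone, each library left out, and 3 splenic libraries left out. On simulated data for the lymph node comparison of Id3- eTR with Id3+ cTR (12445 genes, 200 changed), 46% of genes changed 2-fold and 75% of those changed 4-fold were called, with 4 false calls of 125 and 0 calls when nothing was changed. The changed genes were drawn from those above a minimum mean level, which Cdc6, Chaf1a and Ung did not reach. The shares do not apply to such sparse genes.

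The same number is the same mouse in every group, per the labels, so numbers pair the samples. The median correlation of deviations from group means was 0.0188 within a mouse (45 pairs) and -0.0067 between mice (90 pairs). Per-library values are given for genes called in a comparison of populations, and for other lists up to 4 called genes with the smallest adjusted p are named. Mice differ between replicates, and the main fit has no term for the mouse. Its p-values measure the pooled spread of libraries within groups, all from 3 littermates. That spread does not separate mice from sorting and library noise. The genes and lists were chosen with earlier results of these data known, and the values of single libraries such as those of Pold1, Chaf1a and Rfc1 were chosen after they were seen.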

Additional observations from a re-analysis of the deposited data

How the results depend on the processing

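Over 15 calls of replication genes and all their alternatives, 130 of 186 calls were kept, 56 were lost and 0 reversed. For Id3- eTR against Id3+ cTR, the number called in spleen was 5, and 1 without the 3 splenic libraries, where 1 Id3+ cTR library remained, and with 1 library left out it ran from 3 to 5. In lymph node it was 6, and ran from 2 to 6. For Id3+ eTR against Id3+ cTR in spleen the 1 call became 0 with no filter, with limma-voom, with the replicate block, without the 3 splenic libraries and with the groups alone, and ran from 0 to 1 with 1 library left out. In lymph node the 3 calls became 5 with DESeq2, 4 with the groups alone and 2 with RLE, no filter, limma-voom or the replicate block, and ran from 0 to 1 with 1 library left out. DESeq2 added Pola1, higher by 0.92 on the log2 scale, and Pola2, lower (-0.93). With the groups alone Pola1 (0.91) and Tyms (1.10) were called higher, and Chaf1b was lost. For Id3- eTR against Id3+ eTR, 0 calls became 1 with DESeq2 and 1 with the replicate block in spleen, where they ran from 0 to 1 with 1 library left out, and 1 with DESeq2, limma-voom, the replicate block and the groups alone in lymph node, where they stayed at 0 to 0. In Id3+ cTR between tissues 0 became 1 with DESeq2. All other contrasts between tissues and all interactions gave 0 to 0. The replicate block changed no other call than those given. Dropping a library also leaves fewer samples to estimate the spread. The median SE over the 36 genes tested was 0.32 to 0.33 on the log2 scale in the comparisons of populations. In the simulated data, 46% of genes changed 2-fold were called, all above a minimum mean level. Changes of about 2-fold could therefore be missed in genes that were not sparse too.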
